A study of Mus musculus with 9 samples.

Results

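The RNA of histone genes was followed in cerebellar tissue of P13 mice, that is, at postnatal day 13. Single-gene probe sets were taken where the symbol, or an older name of the same gene, begins Hist1h, Hist2h, Hist3h or Hist4h, or follows the newer names of these genes. The genes of the H1.0, H1.X, H2A.X, H2A.Z, macroH2A and H3.3 histones were added by name. The brightest probe set stood for each gene. The rule found 39 of the 19938 genes that have a single-gene probe set. Of these, 6 are replacement histones, 5 are histones known from germ cells, and the other 28 are called clustered genes here. The 28 include a transcribed pseudogene, H2bu1-ps, and were not chosen by whether they are made only in dividing cells. Another 43 genes that the rule names in the gene table, among them H1f0 and H3f3b, have no single-gene probe set and were not analysed gene by gene.

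The 9 samples form 3 groups of 3, namely wildtype cerebellum, cerebellum of Sufu KO mice, and medulloblastoma of Ptch1 KO mice, a tumour of the cerebellum. Sufu and Ptch1 both encode brakes on the Hedgehog pathway. The RNA of every sample was read on 1 array (Affymetrix Mouse Gene 1.0 ST), and every level below is the deposited log2 value of a probe set. The labels give no strain, no Cre driver and no deleted exon, and do not name the animals. The p-values therefore reflect only how far these samples scatter, part of which may be technical. Sufu itself read 9.03, 8.82 and 9.02 in wildtype, 8.07, 8.14 and 7.99 in Sufu KO, and 9.91, 9.92 and 9.81 in the tumours. The Sufu KO label was thus borne out by a 1.86-fold fall, while Ptch1 was 2.03-fold higher in the samples labelled Ptch1 KO, and a probe set outside a deleted part would not check that label.

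Each nucleosome wraps DNA around 4 kinds of core histone, H2A, H2B, H3 and H4, and the linker histone H1 closes it. Most clustered histone genes are known to be transcribed mainly in S phase, without introns, and their mRNA usually ends in a stem-loop in place of a poly(A) tail. Replacement histones come from genes outside the clusters, and many of them are made throughout the cell cycle. Granule neuron progenitors, which divide in the outer layer of the young cerebellum under the drive of Hedgehog signalling, are the cells from which this kind of medulloblastoma is known to arise. The sources used here do not give the primer that copied the RNA for these arrays, which bears on RNA without a poly(A) tail.

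In both mutant tissues most histone genes were higher than in wildtype. Of the 37 members bright enough to be tested, 20 rose in Sufu KO, 1 fell and 16 did not pass (limma, 2-sided, Benjamini-Hochberg adjusted p under 0.05 over 16323 genes). In the same comparison 13% of all tested genes were called higher and 12.4% lower. In the tumours 29 rose, 1 fell and 7 did not pass, where 22.1% of all genes were called higher and 24.7% lower. Between the mutants 18 were higher in the tumours, 0 were lower and 19 did not pass, where 12.2% of all genes were called higher and 17.5% lower. In this last comparison, weighting the arrays by quality called 31 higher and 1, H2bc4, lower, and a block on the replicate number called 18 higher and the same gene lower. The filter on low values kept H2ac4 and H3c15 only through mutant arrays, since none of their wildtype arrays passed it. With no filter, which tests all 39 members, 19 rose and 1 fell in Sufu KO, 30 rose and 1 fell in the tumours, and 18 were higher and 0 lower between the mutants. The shares of all genes without the filter were 10.4% and 10.1%, 18.2% and 20.4%, and 9.88% and 14.2%, higher and lower in turn. The median log2 difference of the tested members was 0.41 in Sufu KO, 0.74 in the tumours and 0.32 between the mutants, against -0.006, -0.013 and -0.008 over all genes. With no filter the medians over the 39 were 0.38, 0.72 and 0.32. A filter at the array median, which drops the dim members, raised the first to 0.63, and counting the probe sets shared by several histone genes raised the first and the second to 0.76 and 1.24. A rise of at least 1 log2 unit was seen for 9 of the 37 in Sufu KO and 16 in the tumours, against 1.16% and 3.46% of all genes. In Sufu KO all arrays lay above all wildtype arrays for 21 members and below them for 0, against 21.3% and 19.6% of all genes. In the tumours the same held for 30 and 1, against 26.4% and 30.2%, and between the mutants for 23 and 0, against 16.1% and 23.6%. The mutants share the wildtype arrays as their control. In bulk tissue, more cells of one kind and more RNA per cell cannot be told apart.

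The promoters below are printed for genes on which the results turn. They show which letters known from histone promoters the classes carry, in genes that were called higher and in genes that were not. Each line gives the last 150 bases before the RefSeq start of the gene (assembly GRCm38.p6), read 5′ to 3′ on the strand of the gene. Capitals mark motif letters on either strand, namely the octamer ATTTGCAT, the CCAAT box, the H1 box AAACACA and GGTCCG of the H4 promoters, and the TATA box TATAAA on the strand of the gene.
H2bc3, chr13:23746584-23746733, plus strand: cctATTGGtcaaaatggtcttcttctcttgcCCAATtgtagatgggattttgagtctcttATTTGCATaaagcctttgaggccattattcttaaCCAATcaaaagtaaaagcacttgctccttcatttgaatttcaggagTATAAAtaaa
H2bc14, chr13:21721894-21722043, plus strand: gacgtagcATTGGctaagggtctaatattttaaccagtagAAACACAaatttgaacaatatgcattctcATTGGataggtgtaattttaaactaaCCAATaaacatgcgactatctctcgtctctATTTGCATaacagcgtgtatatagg
H2bc8, chr13:23571250-23571399, plus strand: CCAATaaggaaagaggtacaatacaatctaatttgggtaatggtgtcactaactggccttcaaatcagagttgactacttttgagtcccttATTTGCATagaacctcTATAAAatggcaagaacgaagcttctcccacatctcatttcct
H2bc22, chr13:21787338-21787487, plus strand: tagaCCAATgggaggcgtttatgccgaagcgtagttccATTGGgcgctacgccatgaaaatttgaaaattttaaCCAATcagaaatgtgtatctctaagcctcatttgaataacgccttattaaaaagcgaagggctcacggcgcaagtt
H2ac4, chr13:23750938-23751087, plus strand: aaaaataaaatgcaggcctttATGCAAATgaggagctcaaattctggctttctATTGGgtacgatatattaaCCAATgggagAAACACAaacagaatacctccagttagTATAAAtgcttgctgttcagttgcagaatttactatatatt
H1f5, chr13:21780626-21780775, minus strand: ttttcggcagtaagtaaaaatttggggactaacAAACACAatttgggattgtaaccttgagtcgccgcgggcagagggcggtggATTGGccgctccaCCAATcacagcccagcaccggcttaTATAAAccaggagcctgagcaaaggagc
H4c6, chr13:23551669-23551818, minus strand: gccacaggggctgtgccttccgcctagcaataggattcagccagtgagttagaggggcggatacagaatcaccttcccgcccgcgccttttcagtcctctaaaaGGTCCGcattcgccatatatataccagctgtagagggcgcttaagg
H2az1, chr3:137864337-137864486, plus strand: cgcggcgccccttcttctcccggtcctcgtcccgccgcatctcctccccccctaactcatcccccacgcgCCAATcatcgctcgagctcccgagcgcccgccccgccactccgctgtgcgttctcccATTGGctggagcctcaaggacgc

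The first 4 lines are H2B genes. H2bc3 and H2bc14 rose in both mutant tissues, while H2bc8 and H2bc22 passed no test. H2bc8 carries the octamer, the CCAAT box and the TATA box that H2bc3 also carries, and H2bc22 has 3 CCAAT boxes and no octamer in the printed stretch. H2ac4 and H1f5 rose strongly, H4c6 rose most among the H4 genes, and H2az1 is a replacement gene whose stretch shows no TATA box. A match of letters is a description, and no match says only that these letters are not in the window.

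Promoters were found for 33 of the 39 members, 23 of them clustered, and the motifs were counted in the 250 bases before the start. The octamer, which Oct-1 (Pou2f1) is known to bind, was in 7 of the 23 clustered promoters, against 1.6% of all 32851 starts in the table. It was in 4 of 7 H2B and 3 of 4 H2A promoters and in 0 of the 12 promoters of H1, H3 and H4 genes. The H1 box was in 3 of 4 clustered H1 promoters against 6.25% of all starts. GGTCCG, the core of the element that Hinfp is known to bind, was in 5 of 6 H4 promoters against 6.72%. TATAAA was in 11 and CCAAT in 18 of the 23 clustered promoters, against 7.59% and 33.8%. An E2F motif (TTTCGCGC or TTTGGCGC, either strand) was in 1 of the 23, H2bc22, against 0.654%. Motifs were counted separately, with overlaps between different motifs allowed. Genes with and without the octamer both rose: H2bc9 and H2ac15 have none in the window and rose in both mutant tissues, whereas H2bc8 has one and passed no test. No promoter was listed for H2bc4, H2bc21, H2ax, H3c7, H4c14 and H2bu1-ps.

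The linker histone genes of the large cluster on chromosome 13 rose by unequal amounts. H1f5 (Hist1h1b, which encodes H1.5) read 7.86, 7.64 and 7.57 in wildtype, 9.55, 9.59 and 9.84 in Sufu KO, and 10.74, 10.56 and 10.41 in the tumours. The 3 groups did not overlap. The log2 difference from wildtype was 1.97 ± 0.11 (SE, n = 3 per group) in Sufu KO and 2.88 ± 0.11 in the tumours, or 3.92-fold and 7.37-fold, with adjusted p of 7.40e-07 and 5.26e-09. The tumours also exceeded Sufu KO by 0.91 ± 0.11 (adjusted p = 7.62e-05). H1f1 (Hist1h1a, H1.1) read 7.84, 7.57 and 7.53, then 9.0, 9.19 and 9.28, then 10.44, 10.22 and 9.90, again with no overlap. The rise was 2.86-fold and 5.82-fold (adjusted p = 1.01e-05 and 2.84e-08).

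The other clustered H1 genes moved less. H1f2 (Hist1h1c, H1.2, an H1 gene also known to be expressed in cells that no longer divide) read 7.36, 8.07 and 7.59 in wildtype, 8.13, 8.05 and 8.10 in Sufu KO, and 8.30, 8.48 and 8.46 in the tumours. Its rise in the tumours was 1.67-fold (adjusted p = 7.22e-04), where every array lay above wildtype. In Sufu KO the arrays overlapped those of wildtype replicate 2, and the call (0.42 ± 0.14, adjusted p = 0.0448) was lost under 12 of 20 alternatives, with adjusted p between 0.00106 and 0.179. It was lost without any one of the 3 tumour arrays (adjusted p = 0.0537, 0.058 and 0.0531), without any one of the 3 Sufu KO arrays (0.101, 0.0855 and 0.0852) and without wildtype replicates 1 or 3 (0.179 and 0.132). Without wildtype replicate 2 the tumours also exceeded Sufu KO (0.32, adjusted p = 0.0118). H1f3 (Hist1h1d, H1.3) lay between 5.26 and 5.42 in wildtype and Sufu KO and at 5.68, 5.46 and 5.51 in the tumours. Its 1.19-fold rise in the tumours passed (adjusted p = 0.0108), and that call was lost without tumour replicate 1 (adjusted p = 0.0563).

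**Figure D1:**
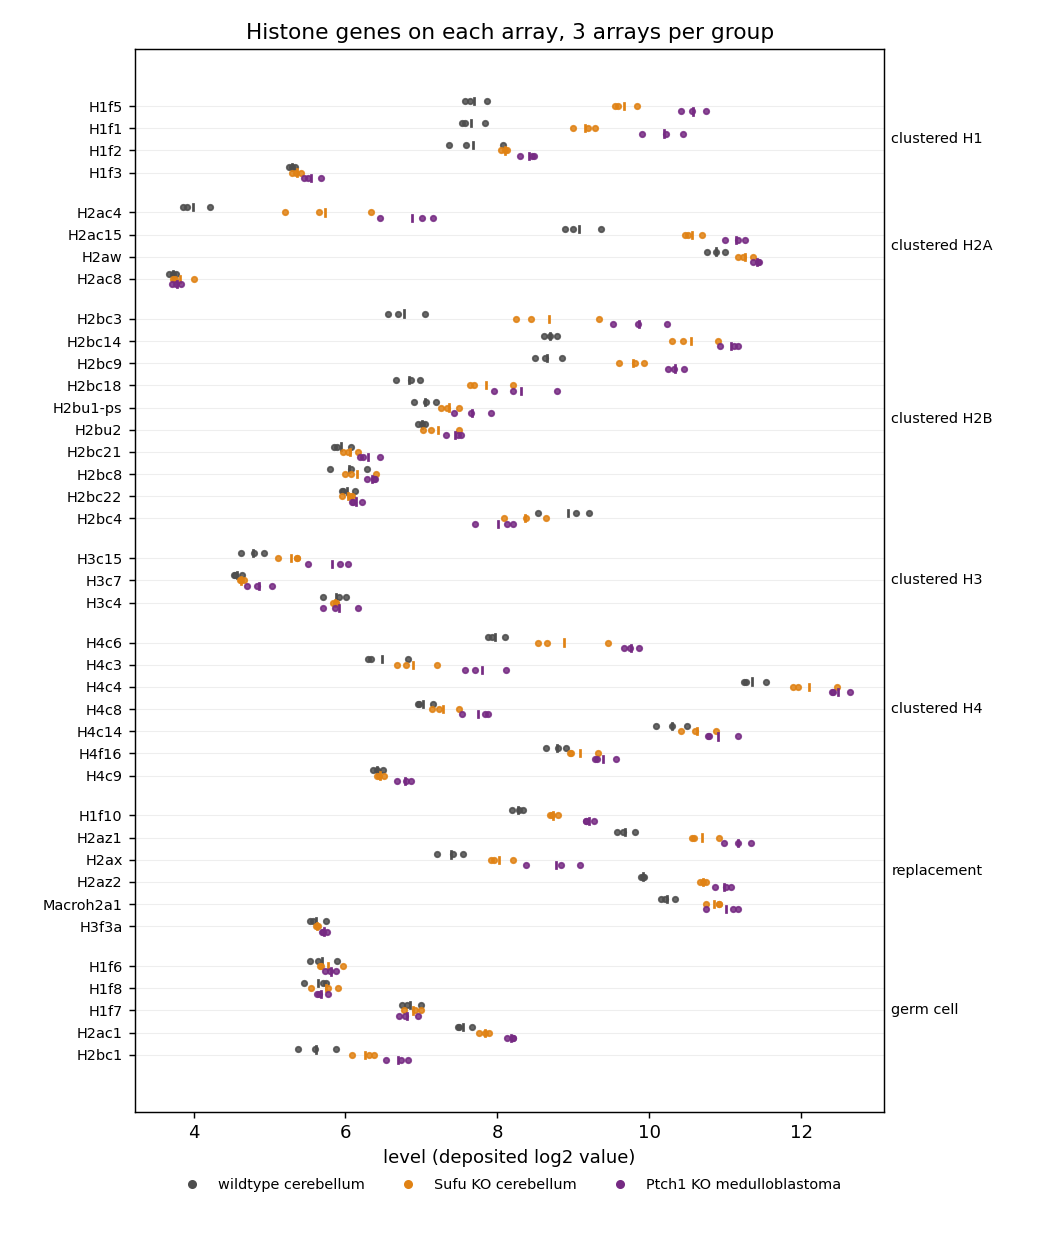
Level of each of the 39 histone genes (deposited log2 value, horizontal axis) on each of the 9 arrays, with a vertical bar at the mean of the 3 arrays of a group. H2bc3 is lowest in wildtype at 6.56 to 7.05, between 8.24 and 9.34 in Sufu KO and highest in the tumours at 9.52 to 10.23, while H2bc4 is highest in wildtype. Probe sets differ in brightness for the same amount of RNA, so levels compare between groups within a gene, not between genes.

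Of the clustered H2A genes, all 3 tested rose in both mutant tissues. H2A is the core histone that pairs with H2B. H2ac4 (Hist1h2ab) read 4.21, 3.86 and 3.92 in wildtype, 5.20, 5.65 and 6.33 in Sufu KO, and 7.15, 7.01 and 6.45 in the tumours. It passed the filter on 2 Sufu KO and 3 tumour arrays and on 0 wildtype arrays, so a difference was built into its being tested. Its folds were 3.32 and 7.33, with adjusted p of 3.95e-04 and 1.51e-06 in the fit of all genes with no filter. H2ac15 (Hist1h2ak) read 9.36, 8.99 and 8.89, then 10.47, 10.51 and 10.69, then 11.26, 11.16 and 11. Its groups did not overlap, and it rose 2.78-fold and 4.18-fold (adjusted p = 5.87e-06 and 5.34e-08). H2aw (Hist3h2a, of the small cluster on chromosome 11) was 10.76 to 10.99 in wildtype, 11.17 to 11.37 in Sufu KO and 11.37 to 11.44 in the tumours. It rose 1.30-fold and 1.45-fold (adjusted p = 0.00365 and 9.60e-05), and the difference between the mutants, 0.16 with a 95% interval of -0.01 to 0.33, did not pass (adjusted p = 0.163). H2ac8 lay at 3.68 to 4.0 on every array and was too dim to be tested.

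The H2B genes held the largest rise in the tumours and the only fall among the tested members. In Sufu KO the largest rise was that of H1f5. H2bc3 (Hist1h2bb) read 7.05, 6.69 and 6.56 in wildtype, 8.24, 8.44 and 9.34 in Sufu KO, and 10.23, 9.85 and 9.52 in the tumours. No array of one group reached another group, although Sufu KO replicate 3 stood apart from its own group. The log2 difference from wildtype was 1.91 ± 0.25 (SE) in Sufu KO and 3.10 ± 0.25 in the tumours, or 3.76-fold and 8.59-fold (adjusted p = 1.98e-04 and 7.59e-07). H2bc14 (Hist1h2bm) read 8.78, 8.69 and 8.61, then 10.30, 10.44 and 10.90, then 11.16, 11.12 and 10.93, and rose 3.60-fold and 5.19-fold (adjusted p = 3.29e-06 and 4.42e-08). H2bc9 (Hist1h2bh) read 8.62, 8.85 and 8.50, then 9.60, 9.81 and 9.93, then 10.45, 10.25 and 10.32, and rose 2.18-fold and 3.21-fold (adjusted p = 1.91e-05 and 1.11e-07). These 3 genes were also higher in the tumours than in Sufu KO, by 1.19, 0.53 and 0.56 (log2, adjusted p = 0.00322, 0.0081 and 0.00168).

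H2bc18, of the cluster on chromosome 3, read 6.86, 6.66 and 6.98 in wildtype, 7.69, 7.64 and 8.20 in Sufu KO, and 8.78, 7.96 and 8.20 in the tumours. It rose 2.02-fold and 2.79-fold (adjusted p = 0.0022 and 3.69e-05), and the mutants overlapped. Between the mutants it differed by 0.47 (adjusted p = 0.0911), which passed without tumour replicate 2 (0.64, adjusted p = 0.031) or without Sufu KO replicate 3 (0.65, adjusted p = 0.02). H2bc21, H2bu2 and H2bu1-ps, the last annotated as a transcribed pseudogene, rose in the tumours by 0.35, 0.43 and 0.61 (log2, adjusted p = 0.00614, 0.00491 and 8.86e-04). Their differences in Sufu KO were 0.12, 0.21 and 0.32 and did not pass; that of H2bu1-ps passed without tumour replicate 1 or 3 (adjusted p = 0.0375 and 0.0356). Between the mutants these 3 genes passed without Sufu KO replicate 3 (H2bc21, adjusted p = 0.0383, and H2bu2, 0.00565) or without tumour replicate 3 (H2bu1-ps, 0.0145, and H2bc21, 0.05). H2bc22 stayed between 5.95 and 6.22 on every array, and its difference in the tumours was 0.12 with a 95% interval of -0.03 to 0.28. H2bc8 ranged from 5.80 to 6.40, and its difference in the tumours, 0.30 with an interval of 0.03 to 0.57, did not pass (adjusted p = 0.066) except under 5 alternatives, 2 of which left out wildtype replicate 2 (adjusted p = 0.0184) or Sufu KO replicate 3 (0.0304).

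H2bc4 (Hist1h2bc) was the member that fell. It read 8.54, 9.04 and 9.21 in wildtype, 8.08, 8.37 and 8.64 in Sufu KO, and 7.71, 8.20 and 8.12 in the tumours. Every tumour array lay below every wildtype array, and the fall was 1.90-fold (log2 difference -0.93 ± 0.18, SE, adjusted p = 0.00104), a call that held under all 20 alternatives. Sufu KO overlapped wildtype, and its difference of -0.57 ± 0.18 (adjusted p = 0.0382) did not pass with sex as a covariate (-0.33, adjusted p = 0.23). It also did not pass without Sufu KO replicates 1 or 2 (adjusted p = 0.131 and 0.0901) or without wildtype replicates 2 or 3 (0.123 and 0.15). Between the mutants H2bc4 differed by -0.36 (adjusted p = 0.18), with a 95% interval of -0.76 to 0.04.

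**Figure D2:**
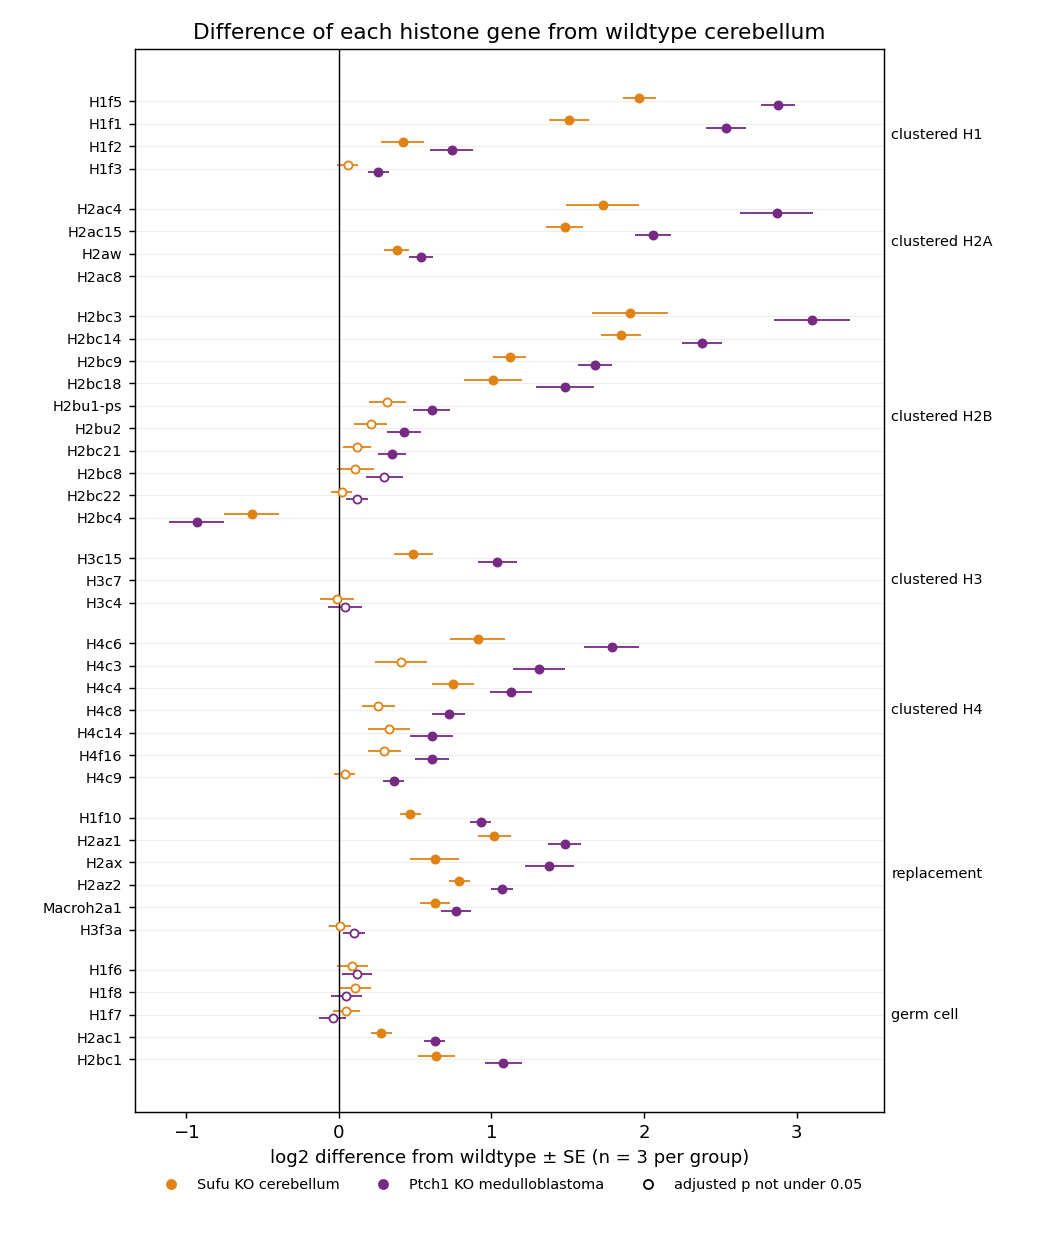
Log2 difference of each tested histone gene from wildtype cerebellum (horizontal axis, 0 is no difference) in Sufu KO and in the tumours, with bars of 1 SE of the limma fit, 3 arrays per group. Filled points have an adjusted p under 0.05; H1f5, H2ac4 and H2bc3 lie farthest right at 2.88, 2.87 and 3.10 in the tumours, and H2bc4 is the only filled point left of 0. H2ac8 and H3c7 were too dim to be tested and have no point.

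Only 3 clustered H3 genes have a probe set of their own, and all 3 were dim. H3c15 (chromosome 3) read 4.93, 4.63 and 4.80 in wildtype, 5.11, 5.36 and 5.36 in Sufu KO, and 5.93, 6.03 and 5.51 in the tumours. It too passed the filter on 0 wildtype arrays, against 2 of Sufu KO and 3 of the tumours. The groups did not overlap, and with no filter its rise of 1.40-fold and 2.05-fold had adjusted p of 0.018 and 3.47e-05. With the filter the adjusted p in Sufu KO was 0.0151, and that call was lost without Sufu KO replicate 2 (adjusted p = 0.0582) or wildtype replicate 2 (0.0696). H3c4 ranged from 5.71 to 6.16 over the 9 arrays, and its differences of -0.01 in Sufu KO and 0.04 in the tumours passed neither test, with a 95% interval in the tumours of -0.20 to 0.27. H3c7 passed the filter on no array and read 4.53 to 4.64 in wildtype and 4.71 to 5.03 in the tumours. With no filter its difference in the tumours was 0.29 (adjusted p = 0.0111) and in Sufu KO 0.06 (adjusted p = 0.704).

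All 7 clustered H4 genes rose in the tumours and 2 of them in Sufu KO. H4c6 (Hist1h4f) moved most, reading 8.10, 7.88 and 7.93 in wildtype, 8.54, 8.65 and 9.45 in Sufu KO, and 9.86, 9.74 and 9.66 in the tumours. It rose 1.88-fold and 3.45-fold (adjusted p = 0.00319 and 5.32e-06). H4c4 (Hist1h4d) read 11.53, 11.25 and 11.27, then 11.89, 11.95 and 12.47, then 12.64, 12.40 and 12.42, and rose 1.68-fold and 2.19-fold (adjusted p = 0.00192 and 2.33e-05). Sufu KO replicate 3 reached the tumour values for this gene, and the difference between the mutants, 0.38 (adjusted p = 0.0564), passed without it (0.57, adjusted p = 0.00161). H4c3 read 6.82, 6.30 and 6.34 in wildtype, 6.68, 6.80 and 7.20 in Sufu KO, and 8.11, 7.70 and 7.57 in the tumours. The tumours exceeded wildtype 2.48-fold (adjusted p = 4.42e-05), while its 0.41 in Sufu KO did not pass (adjusted p = 0.11) except without wildtype replicate 1 (0.58, adjusted p = 0.0332).

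The remaining H4 genes rose in the tumours by 0.36 to 0.72 on the log2 scale. H4c8 rose by 0.72, H4c14 and H4f16 by 0.61 each and H4c9 by 0.36, with adjusted p of 1.38e-04, 0.00295, 6.50e-04 and 9.02e-04. In Sufu KO their differences ran from 0.04 for H4c9 to 0.33 for H4c14 and did not pass. H4c14 passed without Sufu KO replicate 1 (adjusted p = 0.0463), and H4c8 with sex as a covariate (0.41, adjusted p = 0.0233). H4c9 kept to 6.36 to 6.51 in wildtype and Sufu KO and to 6.68 to 6.86 in the tumours, so only the tumours stood apart. Without Sufu KO replicate 3 the tumours exceeded Sufu KO also for H4c14 (adjusted p = 0.0436) and H4f16 (0.00745).

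By class, the counts of clustered genes that rose in Sufu KO and in the tumours were 3 and 4 of 4 for H1, 3 and 3 of 3 for H2A, 4 and 7 of 10 for H2B, 1 and 1 of 2 for H3, and 2 and 7 of 7 for H4. Over all tested genes 13% were called higher in Sufu KO and 22.1% in the tumours. The median log2 differences of the classes in the tumours were 1.64, 2.06, 0.52, 0.54 and 0.72 in that order. The counts for H2A and H3 include H2ac4 and H3c15, which no wildtype array carried past the filter, and leave out the dimmer H2ac8 and H3c7. A difference between classes was not tested. Genes of the same class are near copies of one another, so probes of one may also read its neighbours, and the values of single genes are uncertain to that extent. The counts were also split by brightness. Of the 18 clustered genes whose mean over all 9 arrays lay above the median of every array, 17 rose in the tumours and 1 fell. Of the 8 dimmer genes that were tested, H2ac4 and H3c15 among them, 5 rose. That mean includes the mutant arrays, so a rise itself lifts a gene into the brighter set. H2bc3 and H4c3, with means of 6.76 and 6.49 in wildtype, lay below the highest array median of 6.79 there. The part of brightness in these counts was not tested.

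Many histone genes are too alike for a probe set of their own, and 26 further probe sets list several histone genes each. They were tested in a fit of all genes together with these probe sets. For H3, 10 such probe sets read 10.97 to 11.76 in wildtype, 12.41 to 13.16 in Sufu KO and 12.82 to 13.34 in the tumours. All 10 rose, by 2.64-fold to 2.83-fold in Sufu KO and 3.32-fold to 3.63-fold in the tumours, with adjusted p of at most 6.47e-06 and 1.45e-07. The H3 values in the tumours come close to the highest value on any array, which lay between 13.5 and 13.8 on the deposited scale. The tumours exceeded Sufu KO by 0.31 to 0.39 on the log2 scale, and whether signal is compressed at such levels was not tested. For H2B, 7 probe sets rose 2.62-fold to 3.30-fold in Sufu KO and 3.16-fold to 4.25-fold in the tumours, and 2 of the 7 were higher in the tumours than in Sufu KO.

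The shared H4 probe sets rose less. All 6 rose, by 1.40-fold to 1.70-fold in Sufu KO and 2.08-fold to 2.40-fold in the tumours, with adjusted p of at most 0.00143 and 7.09e-06. A pair of probe sets that list H2A together with H3 genes rose 1.76-fold and 1.87-fold in Sufu KO and 2.34-fold and 2.65-fold in the tumours. The probe set of H2bc6 and H1f4 rose 1.26-fold and 1.55-fold (adjusted p = 0.0118 and 4.07e-05). These probe sets name overlapping genes and 4 of them share every value with another, so their number is not a number of independent measurements. They show that H3, which has almost no probe set of its own, was also higher in both mutant tissues.

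**Figure D3:**
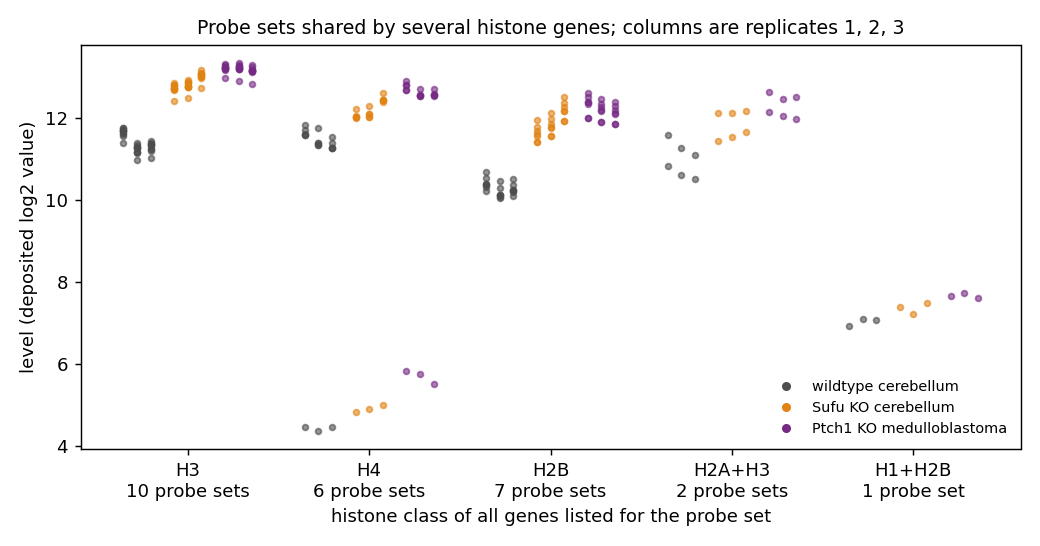
Level (deposited log2 value, vertical axis) of the 26 probe sets that list several histone genes, by the class of the genes listed; each column of points is 1 array, in the order of replicates 1, 2 and 3 within a group. The H3 probe sets lie between 10.97 and 11.76 in wildtype and between 12.82 and 13.34 in the tumours, and 1 dim H4 probe set lies between 4.37 and 5.82.

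Replacement histones rose too, although their genes lie outside the clusters. H2az1 (H2afz), which encodes the H2A.Z found at promoters, read 9.65, 9.57 and 9.81 in wildtype, 10.56, 10.59 and 10.92 in Sufu KO, and 11.34, 11.16 and 10.98 in the tumours. It rose 2.02-fold and 2.79-fold (adjusted p = 6.46e-05 and 5.15e-07), and a second probe set of the gene gave 1.02 and 1.57 on the log2 scale against 1.02 and 1.48. H2az2 (H2afv), the other H2A.Z gene, read 9.93, 9.89 and 9.92, then 10.70, 10.67 and 10.75, then 11.08, 11.01 and 10.86. The groups did not overlap, and it rose 1.73-fold and 2.09-fold (adjusted p = 1.29e-05 and 1.54e-07). Its difference between the mutants, 0.27 (adjusted p = 0.0102), was lost without tumour replicate 1 (0.23, adjusted p = 0.0532).

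H2ax (H2afx), the histone that is phosphorylated around DNA breaks, read 7.41, 7.55 and 7.20 in wildtype, 7.95, 7.91 and 8.20 in Sufu KO, and 9.09, 8.84 and 8.37 in the tumours. It rose 1.55-fold and 2.60-fold (adjusted p = 0.0106 and 1.17e-05), with no overlap between groups. H1f10 (H1fx), a linker histone outside the clusters, lay at 8.19 to 8.33, then 8.69 to 8.80, then 9.16 to 9.27, and rose 1.38-fold and 1.90-fold (adjusted p = 4.09e-04 and 3.56e-07). Macroh2a1 (H2afy), a large H2A variant known from the inactive X chromosome, read 10.20, 10.15 and 10.34, then 10.92, 10.74 and 10.91, then 11.16, 11.10 and 10.75. It rose 1.55-fold and 1.71-fold (adjusted p = 9.85e-04 and 5.49e-05), and the mutants differed by 0.14 (adjusted p = 0.375), or 0.27 without tumour replicate 3 (adjusted p = 0.0297). H3f3a, one of the genes of the replacement histone H3.3, ranged from 5.53 to 5.76 on the 9 arrays. Its differences of 0.01 and 0.10 did not pass, and the 95% interval in the tumours was -0.05 to 0.26. This probe set is dim, since the 25th percentiles of the arrays lay at 5.32 to 5.41 and the medians at 6.72 to 6.79. A change in H3.3 RNA could therefore be missed, and H3f3b has no single-gene probe set.

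Of the 5 germ cell histones, the same pair, H2ac1 and H2bc1, rose in each comparison. Over all tested genes 13% were called higher in Sufu KO, 22.1% in the tumours and 12.2% between the mutants. H2bc1 (Hist1h2ba, the testis H2B) read 5.38, 5.87 and 5.60 in wildtype, 6.08, 6.31 and 6.38 in Sufu KO, and 6.82, 6.73 and 6.53 in the tumours, a rise of 1.56-fold and 2.11-fold (adjusted p = 0.00233 and 1.26e-05). Its difference between the mutants, 0.44 (adjusted p = 0.0173), was lost without tumour replicates 1 or 2 (adjusted p = 0.0762 and 0.0593) or Sufu KO replicate 1 (0.0692). H2ac1 (Hist1h2aa, the testis H2A) read 7.50, 7.67 and 7.48, then 7.84, 7.89 and 7.76, then 8.20, 8.12 and 8.21, a rise of 1.21-fold and 1.54-fold (adjusted p = 0.0129 and 1.36e-05). In Sufu KO that call was lost with sex as a covariate (adjusted p = 0.0822) and without Sufu KO replicate 2 (0.0595), wildtype replicate 1 (0.0535) or wildtype replicate 3 (0.0552). H2bc1 is also listed in probe sets shared with other H2B genes, and cross-reading from these was not tested.

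H1f6 (H1t, of the testis), H1f7 (a spermatid H1) and H1f8 (the oocyte H1) passed no test. Their differences from wildtype lay between -0.04 and 0.12 on the log2 scale. Of 6 spermatid genes fixed as markers, Tnp1, Tnp2, Prm2, Prm3, Odf1 and Acrv1, 4 were bright enough to test and 0 passed in any comparison. Their summed level lay at 8.66 to 8.72 in wildtype, 8.57 to 8.79 in Sufu KO and 8.66 to 8.72 in the tumours.

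The genes that make, process and carry histones were read beside the members. Of 52 tested, 28 rose and 1 fell in Sufu KO, 37 rose and 1 fell in the tumours, and 24 were higher and 1 lower in the tumours than in Sufu KO, with the shares of all genes as given above. Of 6 genes of histone transcription, 2 rose in Sufu KO and all 6 in the tumours. Npat, the coactivator that gathers the histone locus body, read 8.02, 7.93 and 8.02 in wildtype, 7.90, 8.14 and 8.24 in Sufu KO, and 8.49, 8.49 and 8.28 in the tumours. The tumours exceeded wildtype 1.35-fold (adjusted p = 0.00187), and its 0.10 in Sufu KO did not pass (adjusted p = 0.491). Its difference between the mutants, 0.33 (adjusted p = 0.0169), was lost without tumour replicates 1 or 2 (adjusted p = 0.0688 and 0.0722) or Sufu KO replicate 1 (0.0631). Cdk2, the kinase that phosphorylates Npat, rose 2.10-fold and 3.41-fold (adjusted p = 8.79e-05 and 2.84e-07), and Casp8ap2, a component of the same body, rose 1.29-fold and 1.66-fold (adjusted p = 0.00921 and 1.94e-05).

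Of 10 genes that process the mRNA end, 4 rose and 1 fell in Sufu KO, and 5 rose and 1 fell in the tumours. Over all tested genes 13% were called higher and 12.4% lower in Sufu KO, and 22.1% and 24.7% in the tumours. The 1 gene that fell is thus no more than the share of all genes. Slbp, which binds the stem-loop of histone mRNA, read 7.33, 7.44 and 7.44 in wildtype, 7.83, 8.01 and 7.98 in Sufu KO, and 8.47, 8.58 and 8.05 in the tumours, a rise of 1.45-fold and 1.95-fold (adjusted p = 0.00482 and 1.98e-05). Lsm11, a subunit of the U7 snRNP that directs the cut, read 8.35, 8.23 and 8.30, then 7.94, 7.77 and 7.97, then 7.68, 7.59 and 7.72. The groups did not overlap, and Lsm11 fell 1.32-fold in Sufu KO and 1.55-fold in the tumours (adjusted p = 0.00198 and 1.71e-05). Ncbp1, the large subunit of the nuclear cap-binding complex, rose 1.31-fold and 1.35-fold (adjusted p = 0.00449 and 8.27e-04). Lsm10, the partner of Lsm11 in the same particle, differed by 0.01 and 0.10 and did not pass. Between the mutants the calls of Slbp (0.43, adjusted p = 0.0143) and Lsm11 (-0.23, adjusted p = 0.0339) were both lost without tumour replicate 1 (adjusted p = 0.0622 and 0.0752), tumour replicate 2 (0.0717 and 0.134) or Sufu KO replicate 1 (0.0533 and 0.0923), and that of Lsm11 also without Sufu KO replicate 3 (0.1). Of 4 genes of histone mRNA decay, 1 rose in Sufu KO and 2 in the tumours, led by Eri1, the exonuclease that trims the stem-loop, at 1.45-fold and 2.20-fold (adjusted p = 0.00477 and 4.84e-06). Tut4, a uridylyl transferase, was 1.32-fold higher in tumour tissue (adjusted p = 0.00162), and its 0.23 in Sufu KO (adjusted p = 0.0731) passed without Sufu KO replicate 1 (0.31, adjusted p = 0.0192). Between the mutants Tut4 differed by 0.18 (adjusted p = 0.145), which passed without Sufu KO replicate 3 (0.27, adjusted p = 0.0157).

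**Figure D4:**
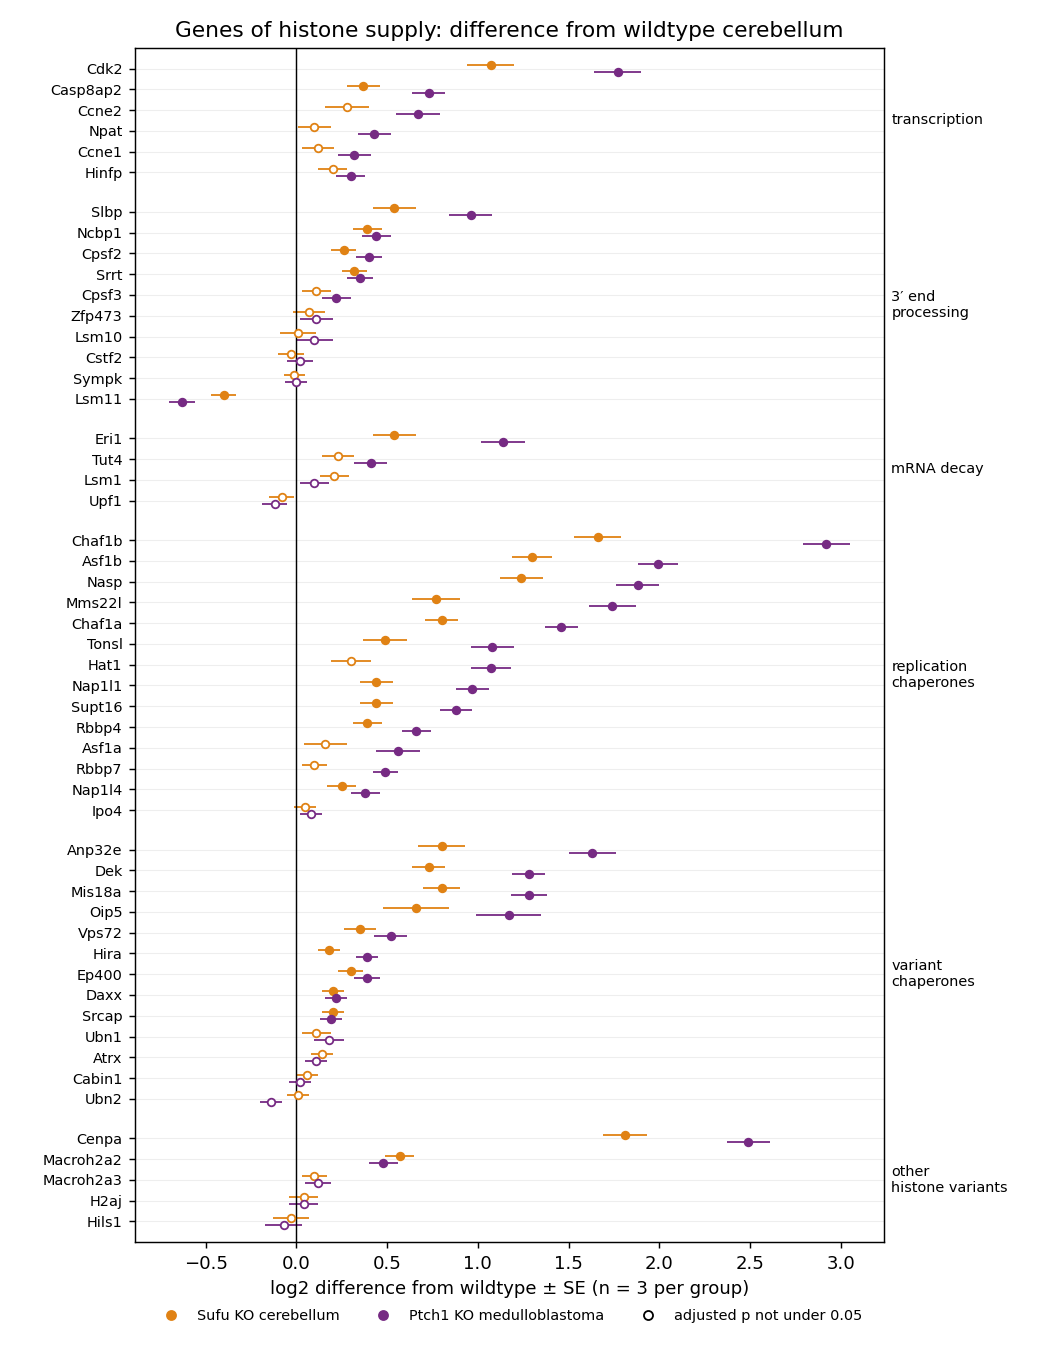
Log2 difference from wildtype cerebellum (horizontal axis) of 52 genes of histone transcription, mRNA processing and decay, histone chaperones and other variants, with bars of 1 SE of the limma fit, 3 arrays per group. Filled points have an adjusted p under 0.05; Chaf1b and Cenpa lie farthest right at 2.92 and 2.49 in the tumours, and Lsm11 is farthest left at -0.63.

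Of 14 genes listed with the chaperones that load histones onto replicating DNA, 10 rose in Sufu KO and 13 in the tumours. Between the mutants 12 were higher in the tumours. For these and the next counts, 13% of all tested genes were called higher in Sufu KO, 22.1% in the tumours and 12.2% between the mutants. Chaf1b, a subunit of the CAF-1 complex that deposits H3 and H4 behind the fork, read 6.08, 6.40 and 6.10 in wildtype, 7.81, 7.91 and 7.85 in Sufu KO, and 9.29, 9.26 and 8.79 in the tumours. It rose 3.16-fold and 7.56-fold (adjusted p = 4.24e-06 and 9.15e-09). Asf1b, which hands H3 and H4 to CAF-1, rose 2.46-fold and 3.97-fold, and Mms22l, of a complex that binds new histones at damaged forks, 1.70-fold and 3.35-fold. Of 13 genes listed with the chaperones of variant histones, 9 rose in Sufu KO and 9 in the tumours. Anp32e, which removes H2A.Z, rose 1.74-fold and 3.10-fold, and Dek, a chaperone of H3.3, 1.66-fold and 2.43-fold, as did Mis18a, which licenses Cenpa loading, at 1.74-fold and 2.43-fold. Of 5 other histone variants 2 rose in each mutant tissue, Cenpa and Macroh2a2, the latter by 1.48-fold and 1.39-fold (adjusted p = 3.40e-04 and 3.22e-04). Cenpa, the H3 variant of centromeres, read 6.88, 6.83 and 6.83, then 8.69, 8.51 and 8.78, then 9.58, 9.42 and 9.03, and rose 3.51-fold and 5.64-fold (adjusted p = 2.35e-06 and 1.90e-08).

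Markers of dividing cells moved with the histones. Of 9 tested genes of S phase and division, 9 were higher in Sufu KO than in wildtype, 9 in the tumours than in wildtype and 9 in the tumours than in Sufu KO, with median log2 differences of 1.63, 2.62 and 0.95. Their summed level was 10.62 to 10.79 in wildtype, 12.35 to 12.49 in Sufu KO and 13.05 to 13.47 in the tumours, and that of the 28 clustered histones 13.26 to 13.37, 13.88 to 14.32 and 14.43 to 14.67. Of 8 markers of granule neuron progenitors 7 rose in each mutant tissue. Of 8 markers of mature granule neurons 7 fell in each, with summed levels of 14.62 to 14.78, 14.01 to 14.14 and 13.02 to 13.49. All 4 Purkinje cell and all 5 oligodendrocyte markers fell in both, Bergmann glia and astrocyte markers fell in 6 and 5 of 6, and endothelial markers in 3 and 5 of 5. Of 7 microglia markers 1 and 4 rose, of 4 choroid plexus markers 3 and 2 rose, of 5 meninges markers 4 fell in Sufu KO and 1 rose and 1 fell in the tumours, and of 4 erythroid markers 0 and 2 fell. Of 2 forebrain markers with a probe set 1 was bright enough to test and did not pass. Over all tested genes 13% were called higher and 12.4% lower in Sufu KO, and 22.1% and 24.7% in the tumours. Between the mutants 12.2% were called higher. For microglia markers in Sufu KO, 1 of 7 is 14.3%, near the share of all genes. The part of these cells in the histone differences was not tested.

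Within the mutant groups the clustered histones also moved together from array to array. Sufu KO replicate 3 was the highest of its group for 23 of 26 tested clustered genes, against 36.2% of all tested genes. Sufu KO replicate 1 was the lowest for 20, against 36.5% of all genes. Among the tumours replicate 1 was the highest for 20 of 26, against 37.7% of all genes. Tumour replicate 3 was the lowest for 15, or 57.7%, against 39.1% of all genes. Wildtype showed less of this: replicate 1 was the highest for 13 of 26, against 36.8% of all genes, and replicates 1, 2 and 3 were the lowest for 8, 9 and 9. Genes of a class are near copies and may share signal, so these counts are not counts of separate observations. Sufu KO replicate 3 was also the highest of its group for 6 of the 9 S phase genes, and tumour replicate 3 the lowest of its group for 9 of 9. By Xist, the RNA of the inactive X chromosome, and Y-linked genes, Sufu KO replicate 3 and tumour replicate 2 were female, the other mutant arrays male and all 3 wildtype arrays female, so sex is unequal between the groups. With sex as a covariate 19 members were higher in Sufu KO and 30 in the tumours, against 20 and 29. Without Sufu KO replicate 3, 19 were higher in Sufu KO than in wildtype and 24 in the tumours than in Sufu KO, against 20 and 18. Tumour replicate 3 lay nearest to wildtype on the first principal component of all genes, at 26.1 against 41.3 and 39.9, and without it 29 members were higher in the tumours than in wildtype and 21 than in Sufu KO.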

How the data were processed

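RNA of 9 tissue samples was measured on 9 Affymetrix arrays, 3 per group, grouped by the sample labels. The authors deposited a table of log2 values, 1 per probe set and array, for 35556 probe sets. How they were background-corrected, normalized and summarised is not given in the sources used. The array medians lay between 6.72 and 6.79. The number of arrays limits the precision, and no detection calls were used, so dim genes cannot be told from background and their folds may be understated. All 9 columns differ from one another.

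Probe sets were named from the supplied platform annotation, and symbols were checked by gene identifier against a RefSeq table (GRCm38.p6), which 21698 of 21789 single-gene probe sets matched. The histone rule was applied to current and older symbols. Probe sets with several symbols (1621) or none listed (12146) were left out, except 26 that list histone genes. The brightest probe set stood for a gene, and 16323 genes above the 25th percentile of the array on at least 3 arrays were tested.

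limma 3.58.1 in R 4.3.3 fitted 1 mean per group over all 9 arrays, with empirical Bayes variances, 2-sided tests and Benjamini-Hochberg adjustment over all tested genes at 0.05. The script was tested on simulated data. Folds are log2 differences turned back to the linear scale, and SE is that of the fit. Summed levels of lists are the log2 of summed linear values, over list genes with a probe set. Alternatives were another filter or none, quantile normalization, median centring, an intensity-trended prior, array weights, fits of only 2 groups, a replicate block, sex as a covariate, the mean of a gene's probe sets, admission of shared probe sets, and leaving out each array.

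The members and gene lists were chosen with earlier results of these data known. The rule for named genes takes the replacement and germ cell histones, Cenpa, Slbp, Npat and Chaf1b. For each class it takes the member with the highest mean, the 3 with the smallest p in the tumours and the largest and smallest difference in each comparison, then any clustered member that fell, members whose probe sets disagree in direction, and the 2 supply genes of each list with the smallest p in each comparison. The other members were named as well, and Lsm10 was chosen after its values were seen. Promoter sequences are from RefSeq.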

Additional observations from a re-analysis of the deposited data

How the results depend on the processing

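Of 156 results for single genes, 124 kept their side of the threshold under every alternative that gave a value. That was 20 alternatives for 120 results, and 19 for the 36 results of genes that the filter at the array median leaves out. A call was lost under at least 1 alternative for 10 results and gained for 22. Direction turned for 0 results where the main fit or the alternative passed. Differences that passed in neither fit were counted as the same even where their sign changed. Admission of probe sets with several symbols, which adds 26 features, gave 46 features higher in Sufu KO, 55 in the tumours and 39 in the tumours against Sufu KO, with median log2 differences of 0.76 and 1.24 from wildtype. The filter at the array median, which leaves out dim members, moved the medians to 0.63, 1.07 and 0.46. With sex as a covariate 0 members were lower in Sufu KO and the tumour median was 0.85. Array weights called 31 higher and 1 lower between the mutants, and the cause was not tested. Leaving out 1 array at a time gave 17 to 20 members higher and 0 to 1 lower in Sufu KO, with medians of 0.32 to 0.44. It gave 28 to 30 higher and 1 lower in the tumours, with medians of 0.70 to 0.80, and 16 to 24 higher and 0 lower between the mutants, with medians of 0.28 to 0.40. Supply genes called ran from 23 to 30, 36 to 39 and 17 to 26, against 29, 38 and 25.

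Deviations of samples that share a replicate number showed no common sign, with correlations of -0.313 to 0.352 over the 9 pairs. Pairs with different numbers ran from -0.35 to 0.397. With 3 arrays per group these values cannot decide whether the numbers pair the samples. With the replicate block 20 members were higher in Sufu KO, 29 in the tumours and 18 between the mutants, where 1 was lower, and 26, 37 and 24 supply genes were called.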
